A study of Mus musculus with 16 samples.

Results

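The 10 genes described here carry out the first steps by which a cell shows its own proteins to CD8 T cells. They are the class I heavy chains H2-K1 and H2-D1, the light chain B2m, the peptide transporter subunits Tap1 and Tap2, the loading chaperone Tapbp, the immunoproteasome subunits Psmb8, Psmb9 and Psmb10, and the transactivator Nlrc5. They were chosen by their symbols from the 32989 gene rows of the liver and kidney tables, and each symbol occurred in 1 row. The libraries came from male C57BL/6J mice, with a liver and a kidney library from each animal. Poly(A)-selected RNA was sequenced as 1 stranded library per organ. Of the 8 mice, 4 had lived under a fixed light-dark cycle with light from 8:00 to 20:00 (LD) and are named L63, L65, L86 and L104. The other 4 had lived under an 8-h advance of the light phase every 4 days (ADV) and are named A75, A91, A94 and A115. Both conditions had lasted 85 weeks, and the animals were 97 weeks old.

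In a class I molecule, a heavy chain and beta-2 microglobulin hold a short peptide that the proteasome has cut in the cytosol. TAP1 and TAP2 pump the peptide into the endoplasmic reticulum, and tapasin, the product of Tapbp, holds the empty molecule beside the pump until a peptide fits. Under interferon gamma, PSMB8, PSMB9 and PSMB10 take the places of the constitutive catalytic subunits PSMB5, PSMB6 and PSMB7 in newly built proteasomes. NLRC5 is drawn to class I promoters and drives the heavy chains, B2m, Tap1 and Psmb9 together. Almost every nucleated cell expresses these genes, leukocytes and sinusoidal cells far more strongly than hepatocytes or tubule cells.

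All 10 genes passed the filter on low values in both organs. H2-K1 (chr17:33996012-34000333, minus strand), H2-D1 (chr17:35263094-35267497, plus strand), Tapbp (chr17:33919478-33929290, plus), Psmb9 (chr17:34182099-34187330, minus), Tap1 (chr17:34187556-34197225, plus), Psmb8 (chr17:34198195-34201454, plus) and Tap2 (chr17:34204479-34216321, plus) lie in the MHC region of chromosome 17 in mm10. B2m (chr2:122147687-122153082, plus), Psmb10 (chr8:105935728-105938392, minus) and Nlrc5 (chr8:94472763-94527272, plus) lie elsewhere. Psmb9 and Tap1 are transcribed away from each other, with 225 bases between their start sites. A longer Psmb9 transcript in GENCODE reaches past the Tap1 start. The rows counted for Psmb9 and Tap1 do not overlap, so that fragments there were not counted for Psmb9. Whether fragments of that transcript were counted for Tap1 was not tested.

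Since NLRC5, RFX, NF-Y and interferon-regulated factors act at promoters, the 300 bases from 250 before to 50 after the start site were searched in RefSeq (GRCm38.p6), which held windows for 8 of the 10 genes. Tap2 and Nlrc5 had no entry. The motifs were TTCNNNGAA (the GAS motif of interferon gamma response), GAAANNGAAA (a repeat bound by interferon regulatory factors), CCAAT (bound by NF-Y) and CACGTG (the E-box bound by BMAL1 and CLOCK), on both strands. No match of one overlapped a match of another. The CCAAT motif was found in 6 of the 8 windows and in 37.4% of 32851 windows of all genes, and each of the other motifs in 1 of the 8. Their shares among all genes were 8.30% for TTCNNNGAA, 3.44% for GAAANNGAAA and 7.15% for CACGTG. In Psmb10 the E-box started 116 bases upstream. A match describes the letters and shows no binding.

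Every ADV liver lay above every LD liver for 1 of the 10 genes, B2m, where 6.94% of all genes lay so. The B2m window is shown for this reason and because its transcript had a base composition unlike the others. Its 250 bases upstream of the start site (chr2:122147437-122147686, plus strand) hold GAAANNGAAA starting 139 bases upstream and CCAAT on the other strand at 53 bases, both in capitals.
B2m: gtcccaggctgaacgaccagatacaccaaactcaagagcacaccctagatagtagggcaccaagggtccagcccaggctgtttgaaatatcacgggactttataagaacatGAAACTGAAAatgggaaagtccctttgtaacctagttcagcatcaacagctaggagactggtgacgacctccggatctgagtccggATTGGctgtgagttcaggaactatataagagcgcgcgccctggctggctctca

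The heavy chains share a pair of CCAAT motifs that point away from each other. It is shown because A94 was the highest mouse for both genes in each organ, and A115 the lowest in the kidney. The same held for Tap1, Tap2, Tapbp, Psmb8, Psmb9 and Psmb10, and the windows of Psmb8 and Psmb10 held no CCAAT motif. At the best ungapped shift of 46 bases, 169 of 204 aligned bases (82.8%) of the H2-K1 and H2-D1 upstream windows were identical. The stretches lie at chr17:34000335-34000363 (minus strand) for H2-K1 and chr17:35263018-35263045 (plus strand) for H2-D1, with the motifs in capitals.
H2-K1: ATTGGgtggcgcgatcaccaagaaCCAAT
H2-D1: ATTGGgtggcgagattccaggagCCAAT

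The last stretches are shown for the immunoproteasome genes. In Psmb8 the GAS motif lies within chr17:34198092-34198112 (plus strand), and between Psmb9 and Tap1 a CCAAT motif lies within chr17:34187328-34187344 (plus strand), 222 bases upstream of Tap1 and 8 bases upstream of Psmb9.
Psmb8: ccgctgTTCCCAGAAgatgcc
Psmb9 and Tap1: ggctttCCAATcagcgg

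The deposited levels are FPKM, the fragments on a gene scaled to its exon length and to the library. Between 21092501 and 24285055 fragments lay on genes in the liver libraries, and between 15688495 and 18043306 did so in the kidney libraries, where 1 fragment in a gene of 1 kb gives between 0.0380 and 0.0440 FPKM and between 0.0508 and 0.0584 FPKM. The A94 liver and the A115 kidney stood apart from the other libraries of their organ, with mean Pearson correlations across genes of 0.941 and 0.858 with the others. Mitochondrial genes took 33.8% of the fragments of the A115 kidney and between 9.43% and 18.02% in the other kidneys. The markers fixed for each organ fitted the labels, since 8 hepatocyte genes summed to at least 61491 FPKM in every liver, and the 8 tubule and podocyte genes summed to at least 1403 FPKM in every kidney and to at most 1.39 FPKM in a liver. That highest liver was A94, where Umod, the tubular uromodulin gene, stood at 1.33 FPKM.

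In the LD-conditioned livers the order of the levels ran over 3 decades. B2m was highest at 1586 ± 64.9 FPKM (SD, n = 4 mice), followed by H2-K1 at 662 ± 42.1 FPKM and H2-D1 at 277 ± 25.7 FPKM. Psmb10 (21.6 ± 2.19 FPKM), Psmb8 (18.97 ± 1.35 FPKM) and Tapbp (18.8 ± 2.09 FPKM) came next, and these neighbours overlapped between mice. The remaining genes lay apart from each neighbour, with Psmb9 at 7.72 ± 1.89 FPKM, Tap2 at 5.11 ± 0.405 FPKM, Tap1 at 3.41 ± 0.50 FPKM and Nlrc5 at 1.64 ± 0.343 FPKM.

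In the LD-conditioned kidneys B2m was again highest, at 518 ± 138 FPKM (SD, n = 4 mice). H2-K1 (131 ± 30.6 FPKM) and H2-D1 (107 ± 25.8 FPKM) overlapped. Tapbp, at 21.2 ± 4.81 FPKM, lay apart from Psmb8, at 7.94 ± 2.30 FPKM. Tap2 (5.36 ± 1.59 FPKM), Psmb10 (5.22 ± 1.21 FPKM), Psmb9 (3.88 ± 1.18 FPKM) and Tap1 (2.09 ± 0.509 FPKM) formed a run in which neighbours overlapped, and Nlrc5 lay apart below them at 0.566 ± 0.122 FPKM.

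**Figure D1:**
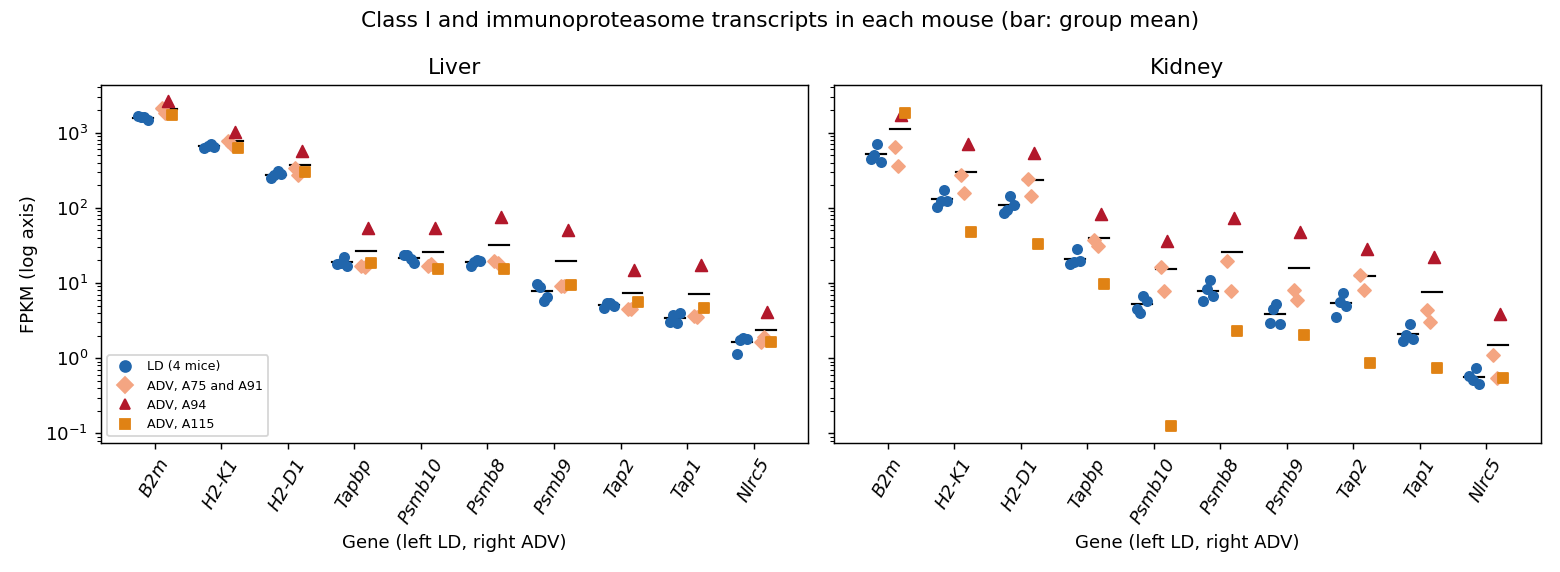
Level of each of the 10 genes in each mouse, in FPKM on a log axis, with liver at the left and kidney at the right; points are single mice and bars are group means. A94 is the highest liver for all 10 genes, and in the kidney A94 is highest for 9 and A115 lowest for 8.

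The first comparison asked whether the class I pathway stood higher in the livers of ADV-conditioned mice. All 10 genes had a higher mean in the ADV livers, with log2 differences on the log2(FPKM + 0.1) scale between 0.058 for Psmb10 and 0.91 for Psmb9 and a median of 0.35, beside a median of 0.096 over all 12835 genes tested. By limma with Benjamini-Hochberg adjustment over all genes, 0 of the 10 had an adjusted p under 0.05, where 0.00779% of all genes did. At an unadjusted p under 0.05, 1 of the 10 was higher, where 8.65% of all genes were. In a bulk organ, more RNA per cell and more cells of a type that expresses these genes cannot be told apart.

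B2m was that gene. Its 4 LD livers held 1650, 1603, 1595 and 1496 FPKM in L63, L65, L86 and L104, and its ADV livers held 2100, 1806, 2621 and 1735 FPKM in A75, A91, A94 and A115. Every ADV liver was above every LD liver, the 1 such gene of the 10, where 6.94% of all genes lay apart in this direction. The log2 difference was 0.36 (standard error 0.16, higher in 4 of 4 ADV mice), with an adjusted p of 0.414 by limma and a p of 0.0286 in the exact permutation test, which is the smallest that 4 against 4 mice allow. Without A94 it was 0.24 (adjusted p = 0.394 by limma), and with each library centred within 20 bins of the GC content of the transcripts, which was chosen after seeing the data, it was 0.22 (adjusted p = 0.536). The Spearman correlation between the GC content of a transcript and its deviation from the mean of the livers was −0.225 in A75 and −0.268 in A91. It was 0.135 in A94, the liver with the highest B2m, and −0.0175 in A115. B2m has the lowest GC content of the 10 genes. Markers of macrophages and Kupffer cells were also higher in the ADV livers, with 7 of 12 lying above every LD liver, and their part in the B2m level was not tested.

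The heavy chains had their highest level in A94 and overlapped otherwise. H2-K1 stood at 617, 670, 716 and 644 FPKM in L63, L65, L86 and L104 and at 772, 684, 1034 and 619 FPKM in A75, A91, A94 and A115 (log2 difference 0.21, standard error 0.16, adjusted p = 0.578). H2-D1 stood at 247, 273, 310 and 278 FPKM in the LD livers, named in the same order, and at 334, 271, 563 and 296 FPKM in the ADV livers (log2 difference 0.34, standard error 0.21, adjusted p = 0.505). Without A94 these differences were 0.060 for H2-K1 and 0.12 for H2-D1. For both genes A75 was second to A94, and the other ADV mice lay among the LD mice. H2-K1, H2-D1 and other class I genes are alike in sequence, and reads with a low mapping quality had been removed, so that fragments of one may be missing or counted for another.

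In the transporter and loading genes A94 lay far above the other livers. Tap1 held between 2.94 and 3.95 FPKM in the LD livers and 3.63, 3.58, 17.1 and 4.63 FPKM in A75, A91, A94 and A115, so that A94 was 4.71 times the median of the other 7 mice. Tap2 held between 4.63 and 5.50 FPKM in the LD livers and 4.53, 4.50, 15.1 and 5.55 FPKM in the ADV livers. Tapbp held between 17.1 and 21.9 FPKM in the LD livers and 17.0, 16.4, 53.3 and 18.5 FPKM in the ADV livers. The log2 differences were 0.73 (standard error 0.44), 0.33 (0.34) and 0.29 (0.34), with adjusted p between 0.501 and 0.710 by limma. Without A94 they were 0.21, −0.074 and −0.12.

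Among the immunoproteasome subunits A94 was again far above the other livers. Psmb9 held 9.73, 8.87, 5.73 and 6.53 FPKM in L63, L65, L86 and L104 and 9.16, 9.22, 51.0 and 9.46 FPKM in A75, A91, A94 and A115, and the A94 level was 5.57 times the median of the other 7. Psmb8 held between 17.0 and 20.1 FPKM in the LD livers and 19.7, 18.2, 75.2 and 15.5 FPKM in the ADV livers. Psmb10 held between 18.7 and 23.4 FPKM in the LD livers, while the ADV livers held 16.8, 18.1, 53.8 and 15.4 FPKM. For Psmb10 the 3 ADV mice other than A94 lay below every LD mouse. Their log2 differences were 0.91 (standard error 0.52), 0.43 (0.43) and 0.058 (0.35) with all mice and 0.30, −0.095 and −0.36 without A94, with adjusted p of at least 0.211 by limma.

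Nlrc5 held 1.13, 1.76, 1.86 and 1.81 FPKM in L63, L65, L86 and L104 and 1.65, 1.93, 4.17 and 1.66 FPKM in the ADV livers (log2 difference 0.41, standard error 0.30, adjusted p = 0.558). It was again A94 that lay outside the range of the others, and without it the log2 difference was 0.11. Over the 10 genes the A94 liver was between 1.54 and 5.57 times the median of the other 7 livers, and it was the highest of the 8 for each. Without A94, 6 of the 10 genes were higher in the ADV livers, with a median log2 difference of 0.083. The mean over the 10 genes, as a log2 difference from the LD mean, was 1.51 in A94 and between −0.070 and 0.071 in the other 7 livers. The correlations between the genes followed the same mouse: over the 45 pairs the median Pearson r across the 8 livers was 0.897, and across the 7 livers without A94 it was 0.056. These are descriptions over few mice that share their libraries.

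The second comparison asked the same of the kidneys. All 10 genes again had a higher mean in the ADV kidneys, with log2 differences between 0.13 for Psmb10 and 1.13 for Psmb9 and a median of 0.66, beside a median of −0.024 over all 14452 genes tested. By limma 0 of the 10 had an adjusted p under 0.05, where 0% of all genes did, and the adjusted p was 0.9999 for each. At an unadjusted p under 0.05, 0 of the 10 were higher, where 1.75% of all genes were. Lying apart from all LD kidneys in the higher direction occurred in 0 of the 10 and in 0.962% of all genes. The exact permutation p of the single genes lay between 0.229 and 0.943.

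**Figure D2:**
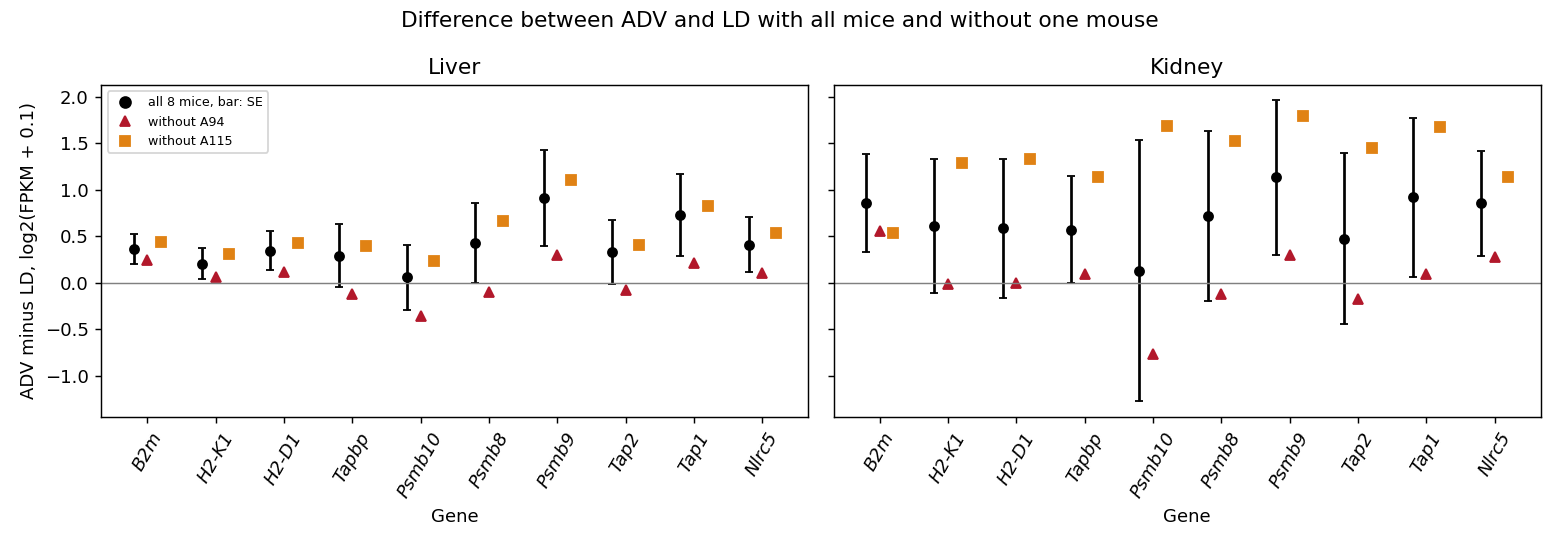
Difference between ADV and LD on the log2(FPKM + 0.1) scale for each gene, in liver (left) and kidney (right); black points with standard error bars use all 8 mice, triangles leave out A94 and squares leave out A115. Without A94 the differences lie between −0.36 and 0.30 in the liver and between −0.77 and 0.56 in the kidney, and without A115 the kidney differences rise above 1 in 9 genes.

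In the kidney the ADV mice were spread on both sides of the LD mice. H2-K1 held 104.1, 122, 175 and 123 FPKM in L63, L65, L86 and L104 and 275, 156, 716 and 47.9 FPKM in A75, A91, A94 and A115 (log2 difference 0.61, standard error 0.72). H2-D1 held 84.5, 94.05, 143 and 108 FPKM in the LD kidneys and 242, 144, 531 and 33.3 FPKM in the ADV kidneys (log2 difference 0.58, standard error 0.74). For both heavy chains A94 was the highest and A115 the lowest of the 8 kidneys.

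B2m had another order. Its LD kidneys held 444, 505, 716 and 406 FPKM in L63, L65, L86 and L104, and its ADV kidneys held 645, 355, 1696 and 1806 FPKM in A75, A91, A94 and A115 (log2 difference 0.86, standard error 0.53). A115, the lowest kidney for the heavy chains, was thus the highest for their light chain.

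The loading genes followed the heavy chains. Tap1 held between 1.70 and 2.83 FPKM in the LD kidneys and 4.42, 3.08, 22.3 and 0.746 FPKM in A75, A91, A94 and A115. Tap2 held between 3.57 and 7.41 FPKM in the LD kidneys and 12.8, 7.98, 28.5 and 0.875 FPKM in the ADV kidneys. Tapbp held between 17.7 and 28.3 FPKM in the LD kidneys and 37.6, 30.7, 82.9 and 9.56 FPKM in the ADV kidneys. In each of these genes A75, A91 and A94 lay above every LD kidney and A115 below. Their log2 differences were 0.92 (standard error 0.86), 0.47 (0.92) and 0.57 (0.58).

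The immunoproteasome subunits were as divided. Psmb9 held between 2.82 and 5.24 FPKM in the LD kidneys and 8.12, 6.01, 47.5 and 2.02 FPKM in A75, A91, A94 and A115. Psmb8 held between 5.72 and 10.98 FPKM in the LD kidneys and 19.5, 7.80, 72.3 and 2.32 FPKM in the ADV kidneys. Psmb10 held 4.51, 3.98, 6.69 and 5.70 FPKM in L63, L65, L86 and L104 and 16.1, 7.86, 36.6 and 0.124 FPKM in the ADV kidneys, where the last value rests on 3 fragments. The log2 differences were 1.13 (standard error 0.83), 0.72 (0.91) and 0.13 (1.41).

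Nlrc5 held between 0.447 and 0.730 FPKM in the LD kidneys and 1.11, 0.541, 3.83 and 0.553 FPKM in the ADV kidneys (log2 difference 0.85, standard error 0.56). For this gene A115 lay among the LD mice. Over the 9 genes in which A94 was the highest kidney it was between 4.27 and 11.1 times the median of the other 7, and for B2m, in which A115 was higher, it was 3.35 times that median. Without A94, 5 of the 10 genes were higher in the ADV kidneys, with a median log2 difference of 0.048, from −0.77 for Psmb10 to 0.56 for B2m.

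Leaving out A115, an alternative planned for every mouse, gave log2 differences between 0.53 for B2m and 1.80 for Psmb9, and an adjusted p under 0.05 for 4 genes by limma. They were H2-D1 (log2 difference 1.33, adjusted p = 0.0476), Tap2 (1.45, 0.0411), Tapbp (1.13, 0.0426) and Psmb10 (1.69, 0.0353), while 2724 of all 14475 genes (18.8%) were then called. When base composition was taken into account as well, which was chosen after seeing the data, by centring each library within 20 bins of the GC content of the transcripts, 0 of the 10 and 0 of all genes were called, the 10 log2 differences were still positive, between 0.62 and 1.72, with a median of 0.87, and the adjusted p lay between 0.184 and 0.410.

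The base composition moved with the kidney libraries. The Spearman correlation across genes (12458 in the liver and 13910 in the kidney) between the GC content of a transcript and its deviation in a library from the organ's mean was −0.764 in the A115 kidney, between 0.581 and 0.708 in the other ADV kidneys, between −0.270 and 0.209 in the LD kidneys and between −0.268 and 0.191 in the livers. It is given as a description, since genes are not independent replicates. B2m has the lowest GC content of the 10 transcripts, 41.2%, followed by Psmb9 with 49.3% and Nlrc5 with 52.9%, and the other 7 lie between 55.9% and 58.9%, where the median of all genes tested in the kidney was 50.25%. In the A115 kidney B2m, of low GC content, was the gene above the LD mice, Nlrc5 lay among them, and the 8 others were below. With all 8 kidneys centred in this way the median log2 difference of the 10 genes was 0.67.

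**Figure D3:**
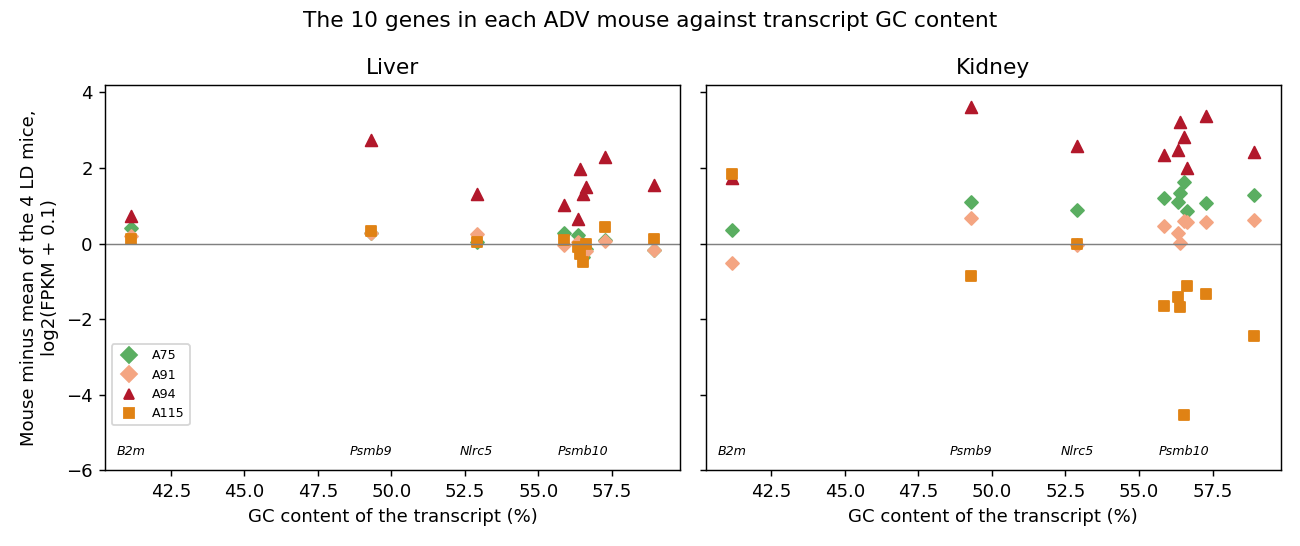
Difference of each ADV mouse from the mean of the 4 LD mice on the log2(FPKM + 0.1) scale, against the GC content of the transcript in percent, for the 10 genes in liver (left) and kidney (right). In the kidney A115 passes from above 0 for B2m at 41.2% to below 0 for Psmb9 at 49.3% and for the genes above 55%, while A94 stays above 0 throughout.

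To ask whether the proteasome changed its make-up, each immunoproteasome subunit was divided by the constitutive subunit it replaces, within a library. In the LD livers the FPKM ratio of Psmb8 to Psmb5 was 0.346 ± 0.035 (SD, n = 4), that of Psmb9 to Psmb6 0.0851 ± 0.014 and that of Psmb10 to Psmb7 0.204 ± 0.015. In the ADV livers the A94 ratios were 0.973, 0.524 and 0.479, and A75, A91 and A115 lay between 0.266 and 0.331, between 0.0927 and 0.125 and between 0.138 and 0.161. The A94 liver was above the other 7 in each ratio, and for Psmb10 to Psmb7 the other ADV livers were below every LD liver. Exact permutation tests gave p = 0.971, p = 0.0571 and p = 1 for the differences between the conditions, of log2 0.20, 0.91 and −0.023, among 8 tests of ratios. Without A94 these differences were −0.23, 0.33 and −0.44.

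The mean kidney ratios of the LD mice were lower than their mean liver ratios, although in L86 Psmb9 to Psmb6 was higher in the kidney (0.0726) than in the liver (0.0687). The means were 0.132 ± 0.028 (SD, n = 4) for Psmb8 to Psmb5, 0.0557 ± 0.018 for Psmb9 to Psmb6 and 0.0582 ± 0.014 for Psmb10 to Psmb7. The A94 ratios were 0.704, 0.466 and 0.307. A115 had 0.755 for Psmb8 to Psmb5, above A94, with Psmb5 at 3.07 FPKM against between 52.5 and 103 FPKM in the other kidneys, and 0.00163 for Psmb10 to Psmb7. The exact permutation p was 0.286, 0.143 and 0.971, with log2 differences of 1.22, 1.21 and −0.22. Without A94 these were 0.82, 0.58 and −1.11, and without A115 they were 0.78, 1.27 and 1.41. With all mice, a pseudocount of 1 turned the last to 0.39.

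**Figure D4:**
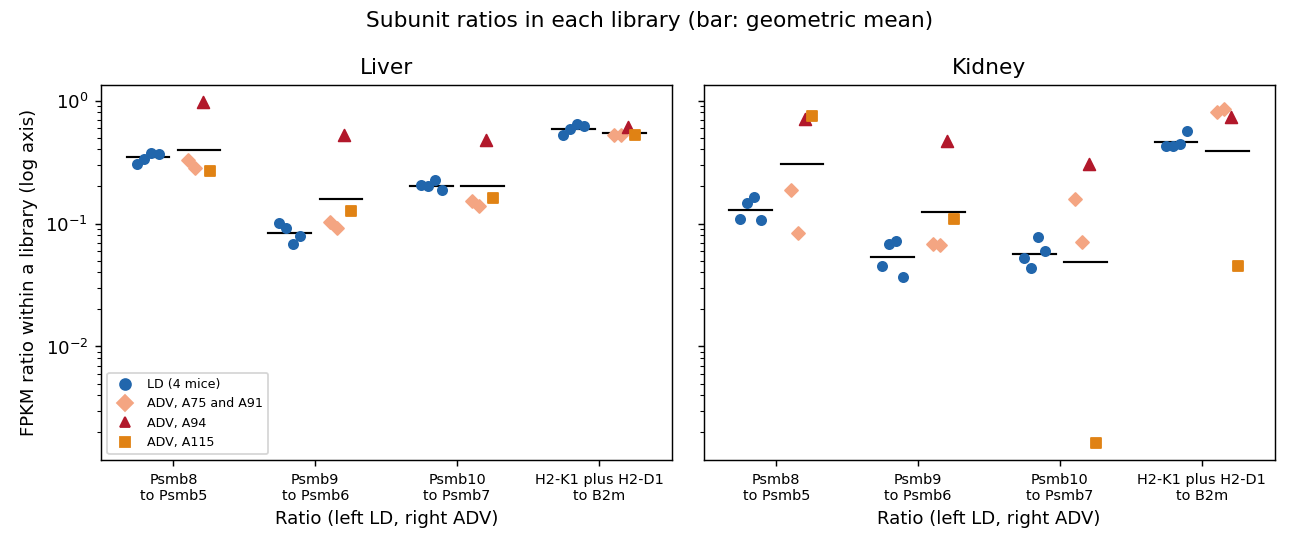
FPKM ratios within each library on a log axis, in liver (left) and kidney (right); points are mice and bars are geometric means. A94 is above the other livers in the 3 proteasome ratios, and in the kidney A115 is far below the others for Psmb10 to Psmb7 and for the heavy chains to B2m.

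The heavy chains to B2m ratio, (H2-K1 + H2-D1)/B2m, was 0.593 ± 0.051 (SD, n = 4) in the LD livers and 0.548 ± 0.041 in the ADV livers (log2 difference −0.11, exact permutation p = 0.257). A94, at 0.609, did not stand out in this ratio from the LD livers. In the kidneys it was 0.424, 0.427, 0.445 and 0.569 in L63, L65, L86 and L104 and 0.802, 0.846, 0.735 and 0.0450 in A75, A91, A94 and A115. The 3 ADV kidneys other than A115 were above every LD kidney and A115 far below, and the log2 difference was −0.26 (exact permutation p = 1). It turned to 0.78 without A115 and was −0.57 without A94.

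The genes around the 10 were read in lists written from general knowledge, and several of the lists hold some of the 10. Among all genes 65.7% were higher in the ADV livers and 46.4% in the ADV kidneys, and without A94 these shares were 54.1% and 35.7%. Without A115, 67.8% of all genes were higher in the kidney and 18.8% were called. Of the 6 immunoproteasome and PA28 genes, which add the activator subunits Psme1 and Psme2 and the assembly factor Pomp to the 3 subunits, 6 were higher in the ADV livers (median log2 difference 0.24) and 6 in the ADV kidneys (0.20), without an adjusted p under 0.05. Without A94, 3 were higher in the liver (median 0.0077) and 1 in the kidney (−0.15), and without A115 the kidney median was 1.22 with 1 gene called. Psme1 stood at 143 FPKM and Psme2 at 129 FPKM in the A94 liver, 2.02 and 1.80 times the median of the other 7. The 3 constitutive catalytic subunits had median log2 differences of 0.081 (liver) and −0.068 (kidney). The 11 other 20S core subunits had medians of 0.12 and −0.032, and the 21 genes of the 19S regulator had 0.12 and −0.12. Without A115 the kidney medians of these 3 lists were 0.55, 0.085 and 0.11, and without A94 they were −0.27, −0.11 and −0.12. Calls were gained in these lists too without A115, for 2 of the 3 constitutive catalytic subunits, 1 of the 11 other 20S core subunits and 8 of the 21 genes of the 19S regulator. In the liver the median of the other 20S core subunits was 0.046 without A94. In the liver Psma1 (log2 difference 0.30), Psmc4 (0.22) and Psmd14 (0.26) had the smallest p among the constitutive proteasome genes, with adjusted p between 0.377 and 0.407 by limma.

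Of the 9 peptide transport and loading genes 7 were higher in the liver (median 0.080) and 6 in the kidney (0.25). Without A94, 4 were higher in the liver (−0.036) and 6 in the kidney (0.023), and without A115 the kidney median was 0.11 with 2 genes called. Tapbpl, the tapasin-related gene, had a log2 difference of 0.37 in the liver (adjusted p = 0.506), and 0.13 without A94. Among the non-classical class I genes, 12 of 14 tested were higher in the liver (median 0.19) and 7 of 14 in the kidney (0.093). Without A94 these were 7 (0.026) and 4 (−0.34), and without A115, 12 were higher in the kidney (0.58), with 2 called. Mr1, which presents vitamin B metabolites to MAIT cells, had a log2 difference of 0.42 in the liver (adjusted p = 0.355), with 2.94, 3.22, 3.21 and 2.47 FPKM in the ADV mice and between 1.93 and 2.51 FPKM in the LD mice. Hfe, the hemochromatosis gene, stood between 25.1 and 27.2 FPKM in the ADV livers, all above the LD livers at 21.8 to 24.04 FPKM (log2 difference 0.19, adjusted p = 0.407). Azgp1, a secreted class I fold, had one of −0.74 in the kidney (adjusted p = 0.9999), and −0.44 without A115. H2-Q10, a liver-secreted class I molecule, stood between 785 and 1103 FPKM in the livers and at no more than 1.19 FPKM in the kidneys.

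Of the 15 class I transcription genes 13 were higher in the liver (median 0.25) and 11 in the kidney (0.40). Without A94 these were 11 (0.091) and 10 (0.041). Rfx5, a subunit of the RFX complex, had a log2 difference of 0.50 in the liver (adjusted p = 0.385), and Irf9 one of 0.46 (adjusted p = 0.424), which was 0.25 without A94. Irf1, an interferon-induced transcription factor, held 27.1 FPKM in the A94 liver and 33.4 FPKM in the A94 kidney, 2.02 and 5.0 times the median of the others. Ifng itself was at 0.109 FPKM in the A94 liver and at no more than 0.0359 FPKM in the others. These values rest on few fragments, since 1 fragment in 1 kb gives between 0.0380 and 0.0440 FPKM in the liver. In the kidney Ifng was at 0.737 FPKM in A94 and at no more than 0.0921 FPKM in the others. Of the interferon gamma signalling genes 8 of 8 tested were higher in the liver (median 0.32) and 7 of 9 in the kidney (0.23), none with an adjusted p under 0.05. Without A94 these were 7 (0.11) and 5 (0.14).

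Markers of leukocytes were high together with the 10 genes in A94. Those of macrophages were on average also higher in the other ADV livers, where the 10 genes were not. The mean log2 difference of the 10 genes was 0.071, 0.015 and 0.028 in A75, A91 and A115, beside −0.070 to 0.070 in the LD livers. All 6 general leukocyte genes were highest in A94 in both organs, and summed there to 216 FPKM (liver) and 295 FPKM (kidney), against 20.7 to 31.1 FPKM in the other livers and 28.8 to 81.4 FPKM in the other kidneys. The 8 B and plasma cell genes summed to 711 FPKM in the A94 liver, mostly Jchain at 600.1 FPKM, and to between 5.43 and 18.8 FPKM in the other livers. In the kidney they summed to 564 FPKM in A94 and to between 13.4 and 61.9 FPKM in the others. The 12 CD8 T and NK cell genes summed to 30.7 FPKM in the A94 liver, against 2.41 to 4.60 FPKM in the other livers, and to 45.7 FPKM in the A94 kidney, against 5.45 to 10.8 FPKM in the other kidneys, with all 12 highest in the A94 liver and 11 in the A94 kidney.

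The 12 macrophage and Kupffer cell genes summed to 1027 FPKM in the A94 liver, to between 329 and 412 FPKM in the other ADV livers and to between 233 and 336 FPKM in the LD livers. All 12 were higher in the mean of the ADV livers (median log2 difference 0.80), 7 at an unadjusted p under 0.05 by limma and none at an adjusted p under 0.05, and without A94 all 12 were still higher (median 0.41). In 7 of them, Adgre1, Csf1r, Clec4f, Vsig4, C1qa, C1qb and C1qc, every ADV liver was above every LD liver, where 6.94% of all genes lay so. In the kidneys they summed to 695 FPKM in A94 and to between 75.4 and 328 FPKM in the others, with the Kupffer cell gene Clec4f at 0 in all 8. The 8 dendritic cell genes summed to 7.83 FPKM in the A94 liver, against 1.69 to 2.57 FPKM, and to 16.1 FPKM in the A94 kidney, against 3.33 to 8.25 FPKM. The 8 endothelial genes summed to 84.4 FPKM in the A94 liver, within a range of 71.7 to 101 FPKM, and to 74.2 FPKM in the A94 kidney, within a range of 40.1 to 74.5 FPKM. Single genes differed, since 4 of the 8 were highest in A94 in each organ. In the liver Lyve1 stood at 7.55 FPKM in A94 and at no more than 2.57 FPKM in the others, and Pecam1 at 12.5 FPKM against at most 6.58 FPKM, while Clec4g, the largest part of the sum, was lowest in A94 at 30.1 FPKM. The part of these cells in the levels of the 10 genes was not tested.

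**Figure D5:**
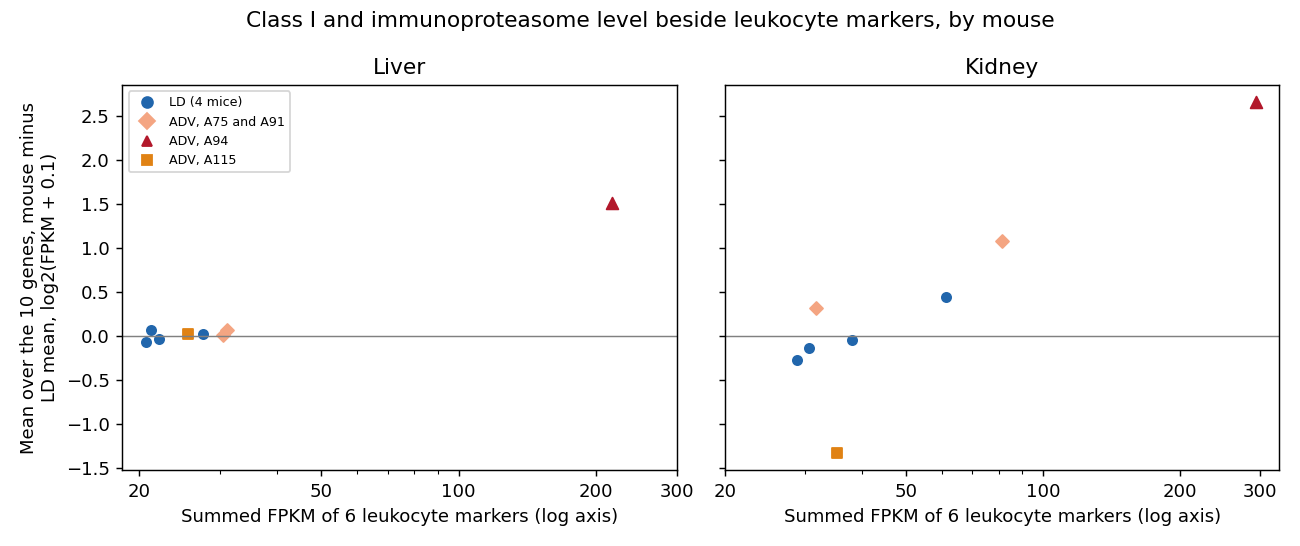
Mean over the 10 genes of the log2(FPKM + 0.1) difference from the LD mean, against the summed FPKM of 6 leukocyte genes on a log axis, for each mouse in liver (left) and kidney (right). A94 is at the upper right in both organs, at 1.51 in the liver and 2.66 in the kidney, and the A115 kidney is below the others at −1.32.

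The mean over the 10 genes in the kidney was 2.66 in A94, 1.08 in A75, 0.45 in L86 and 0.32 in A91, and between −0.27 and −0.039 in the other LD mice, with A115 at −1.32. L86 was the LD kidney with the highest sum of leukocyte genes, at 61.2 FPKM, and A75 the second of all kidneys, at 81.4 FPKM. A91 and A115 had sums of 31.8 and 35.2 FPKM, both within the LD range of 28.8 to 61.2 FPKM, although their means over the 10 genes differed. Across the 6 kidneys without A94 and A115, the median Pearson r over the 45 pairs of the 10 genes was 0.894, where the 6 livers of the same mice had 0.076. The GC content correlations of A75 and A91 given above apply to these kidneys as well.

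The genes whose pattern over the 16 libraries was most like the mean z-score of the 10, after subtraction of the organ's mean and among the 12220 genes tested in both organs, were H2-DMa (Pearson r = 0.988), Coro1a (0.984), H2-Eb1 (0.983), Il4i1 (0.982) and Arhgap25 (0.980). Without A94, over 14 libraries, their r was 0.941, 0.957, 0.911, 0.925 and 0.880. Of the 10 genes themselves 9 had an r between 0.736 and 0.946, and B2m had 0.366, and −0.411 without A94. No p is given for these descriptions.

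Whether the ADV difference itself differed between the organs was tested as an interaction over all 16 libraries. The kidney minus liver differences of the 10 genes were all positive, from 0.072 for Psmb10 to 0.49 for B2m with a median of 0.26, beside −0.13 over all genes. Their sign and size rested on single mice, since 4 of the 10 were positive without A94 and 6 without A75, and the median ran from −0.048 to 0.85 as each mouse was left out. By limma 0 of the 10 were called, where 0% of all 14379 genes were, and each adjusted p was 0.9999. The standard errors, between 0.58 and 1.53, were larger than each difference.

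The organs themselves differed in class I level. In the LD mice 4 of the 10 genes were lower in the kidney at an adjusted p under 0.05 by limma, where 11.0% of all genes were, and 0 were higher, where 55.3% were (66.3% called in all). They were H2-K1 (log2 difference, kidney minus liver, −2.36, standard error 0.55, adjusted p = 0.0015), B2m (−1.65, 0.41, adjusted p = 0.0024), Nlrc5 (−1.38, 0.47, adjusted p = 0.0184) and H2-D1 (−1.39, 0.58, adjusted p = 0.0457). Psmb10 (−2.05), Psmb8 (−1.29), Psmb9 (−0.99) and Tap1 (−0.70) did not pass the test, with adjusted p between 0.108 and 0.416. Every LD kidney was below every LD liver for these 8 genes, called or not, where 14.0% of all genes lay so. The H2-D1 call was lost without any one of L63, L65, L86, L104, A75 and A91 (adjusted p between 0.0603 and 0.128) and with no filter (0.0628), the Nlrc5 call without L65, L86 or L104 (between 0.0514 and 0.0874), and the B2m call by quantile normalization (−0.83, adjusted p = 0.180), all by limma. With all mice, a pseudocount of 1 called Psmb10 (−1.88, adjusted p = 0.0398). Calls were gained for Psmb8 (adjusted p = 0.0497) and Psmb10 (0.00049) without A115, and for Psmb8 (0.0244) and Psmb9 (0.0263) without A94, since these ADV libraries enter the common estimate of the spread. Tap2 (0.026) and Tapbp (0.15) had the smallest differences, and their sign turned with the scaling, to −0.77 and −0.66 by the median ratio. Between organs the median over all genes was 0.79 as deposited and 0.030 after scaling by the median ratio, under which 7 of the 10 were called lower, where 25.02% of all genes were.

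In the ADV mice 2 of the 10 were lower in the kidney, where 11.2% of all genes were, and 0 higher, where 51.2% were (62.3% called in all). These were H2-K1 (−1.96, standard error 0.55, adjusted p = 0.0061) and B2m (−1.15, 0.41, adjusted p = 0.0232). The B2m call was lost without A75 (−0.97, adjusted p = 0.116), without A91 (−0.76, 0.0867) and by quantile normalization (−0.21, 0.765). H2-D1 (−1.15, adjusted p = 0.0968) and Nlrc5 (−0.94, adjusted p = 0.0992) did not pass the test, and without A94 both did (−1.51, adjusted p = 0.0219, and −1.21, 0.0018), as did Psmb8 (−1.31, 0.0482). With all mice, quantile normalization called Nlrc5 (−1.92, adjusted p = 0.00056) and Psmb10 (−2.44, 0.0438) beside H2-K1, where 23.4% of all genes were called lower. Since the difference of these contrasts is the interaction above, none of the 10 was shown to differ between the organs more in one condition than in the other with all mice. Without A94 and A115, an alternative chosen after seeing the data, the interaction called Psmb10 (1.42, adjusted p = 0.0413) by limma, where 5.25% of all genes were called.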

How the data were processed

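Liver and kidney RNA-seq of 4 LD and 4 ADV mice was used, as 16 libraries of 8 mice. The authors trimmed reads with Trimmomatic, mapped them to mm10 with STAR (2.5.4b in the submitters' processing notes), removed low mapping qualities with SAMtools and counted UCSC known canonical exons with Homer. The deposited values are FPKM, although the column names say RPKM. All values were multiples of 0.5 fragment (tolerance 0.01 of a step), from which fragments were recovered. A pair of sequencing providers was used, and which library came from which is not stated, so that provider and condition cannot be told apart.

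Log2(FPKM + 0.1) of genes with a mean over 0.5 RPM (FPKM times exon length in kb) was fitted with limma 3.58.1 in R 4.3.3 (trend) per organ, and over all 16 libraries for comparisons of organs, with Benjamini-Hochberg adjustment over all genes tested. Genes under an adjusted p of 0.05 were counted as called. Single genes and ratios were compared with two-sided exact permutation tests over 70 assignments (scipy 1.17.1), of which 0.0286 is the smallest p. Every one of the 10 genes is named, and of other lists genes with an adjusted p under 0.05 or else at most 4 with the smallest p, beside genes named for a value in A94, H2-Q10, Umod, Clec4g and the macrophage genes, which were chosen after their values were seen. The members and lists were chosen with earlier results of these data known. The p-values measure the spread between mice.

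Liver and kidney of a mouse were paired by the mouse number in the labels. Their deviations from the group means correlated across genes with r between −0.0242 and 0.553. Alternatives were a pseudocount of 1, no filter, median ratio scaling, quantile normalization, limma-voom on recovered fragments, the mouse as a replicate block, the sum of H2-K1 and H2-D1, and leaving out each mouse. After the data were seen, leaving out A94 with A115, leaving out A115 with median ratio scaling, and centring within 20 bins of GC content (GENCODE vM21 transcripts, matched for at least 96.25% of genes) were added. The procedure was tested on simulated data.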

Additional observations from a re-analysis of the deposited data

Results flagged for a closer look

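Within each group of 4 mice, the levels and ratios were searched for a mouse far from the other 3 by Dixon's ratio, above its critical value for 4 samples. Of 56 groups examined 18 held such a mouse, and chance gives about 1 in 20. The genes share their mice, so that these are not independent.

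A94 was the mouse far above the other ADV mice in 14 of them, 11 in the liver and 3 in the kidney. In the liver these were Tap1 (17.1 FPKM), Tap2 (15.1 FPKM), Tapbp (53.3 FPKM), Psmb8 (75.2 FPKM), Psmb9 (51.0 FPKM), Psmb10 (53.8 FPKM) and Nlrc5 (4.17 FPKM), the ratios of Psmb8 to Psmb5 (0.973), Psmb9 to Psmb6 (0.524) and Psmb10 to Psmb7 (0.479), and the ratio of the heavy chains to B2m (0.609). In the kidney they were Tap1 (22.3 FPKM), Psmb9 (47.5 FPKM) and the ratio of Psmb9 to Psmb6 (0.466). H2-K1, H2-D1 and B2m were not among them. The summed leukocyte genes of A94 were 8.45 and 8.37 times the median of the other 7 mice in liver and kidney, and their part in these levels was not tested.

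The other 4 were Nlrc5 in the L63 liver, which was low (1.13 FPKM), Tapbp in the L86 kidney, which was high (28.3 FPKM), the heavy chains to B2m ratio in the L104 kidney, which was high (0.569), and the same ratio in the A115 kidney, which was low (0.0450).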

How the results depend on the processing

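Across the alternatives that kept all mice, none of the 10 genes was called between ADV and LD in either organ. Their median log2 difference stayed between 0.26 and 0.36 in the liver and between 0.60 and 0.68 in the kidney, and the sign turned for Psmb10, to −0.032 in the liver by median ratio scaling and to −0.0077 in the kidney by limma-voom, both within the spread. The mouse as a replicate block in 1 fit of both organs left the 10 log2 differences as they were, with 0 of the 10 called, and 2 of all genes called in the kidney. With the replicate block 9801 and 9232 genes differed between the organs in LD and ADV, and it changed no call of the 10.

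Leaving out 1 mouse moved the genes called in the liver between 0 and 9, in the kidney between 0 and 2724 and in the interaction between 0 and 415, the highest without A91, A115 and A115. It moved the members called in the kidney between 0 and 4, between organs in LD between 2 and 6, and in ADV between 1 and 5, all lower in the kidney, where between 9.34% and 14.2% and between 10.1% and 11.4% of all genes were called lower. The median interaction of the 10 ran from −0.048 to 0.85, with 4 to 10 of them positive. Liver log2 differences that turned were those of Psmb10 (−0.36 to 0.24), Tap2 (−0.074 to 0.50), Tapbp (−0.12 to 0.45) and Psmb8 (−0.095 to 0.66), lowest without A94. In the kidney they were those of Psmb10 (−0.77 to 1.69), H2-K1 (−0.015 to 1.29), H2-D1 (−4.24e-05 to 1.33), Tap2 (−0.18 to 1.45) and Psmb8 (−0.12 to 1.52), lowest without A94 and highest without A115. Of the ratios, Psmb8 to Psmb5 (−0.23 to 0.39) and Psmb10 to Psmb7 (−0.44 to 0.16) turned in the liver, and Psmb10 to Psmb7 (−1.11 to 1.41) and the heavy chains to B2m (−0.63 to 0.78) in the kidney. Between organs they were Tap2 in LD (−0.11 to 0.16) and in ADV (−0.27 to 1.07), and Tap1 in ADV (−0.81 to 0.15).

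Of other settings, keeping low values called 6 genes in the liver and 3 in the interaction, quantile normalization 0 and 1, and median ratio scaling 1 in the interaction. Without A94 and A115 there were 2 genes in the liver, 672 in the kidney and 746 in the interaction (5.25% of all genes), with 1 of the 10 (Psmb10) among the last. The log2 differences of Tap2 (−0.17), Tapbp (−0.17) and Psmb10 (−0.30) in the liver and B2m (−0.078) in the kidney turned. The other kidney differences lay between 0.42 for Nlrc5 and 1.12 for Psmb10, with adjusted p of at least 0.066 by limma. Without A115, scaling by the median ratio called 2318 of all 14475 genes in the kidney, 2 of the 10 (Tap2 and Psmb10) among them. In the interaction it called 488 genes, 3.39% of all, with 0 of the 10 among them. Without A115, centring by GC content called 0 in the liver. Between the organs, 7 of the 10 were called in LD by median ratio scaling and 7 by quantile normalization, and 6 in ADV by median ratio scaling and 3 by quantile normalization, all lower in the kidney, where 25.02%, 25.13%, 24.58% and 23.4% of all genes were called lower. Tap2 and Tapbp turned to −0.77 and −0.66 in LD and −0.55 and −0.30 in ADV by median ratio scaling, and by quantile normalization to −0.76 and −0.33 in LD and, for Tap2, −0.42 in ADV. A pseudocount of 1 called 5 of the 10 in LD, with Psmb10 added, and turned the kidney difference of Psmb10 to Psmb7 to 0.39, where the A115 value rests on 3 fragments. For the other turns the cause was not tested. The spread between the ADV kidneys, with standard errors up to 1.41 on the log2 scale, limits what that comparison can show.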

Other observations

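Without A94, the genes outside the 10 that were most like the mean z-score of the 10 genes over the remaining 14 libraries were Ifi30 (Pearson r = 0.981), a thiol reductase of the endosome, Arhgap9 (0.973), the complement genes C1qc (0.970) and C1qa (0.967), and Unc93b1 (0.965), which carries Toll-like receptors to the endosome. Over all 16 libraries their r was between 0.874 and 0.969. Their transcripts had a GC content between 53.4% and 59.5%, where the median of all genes tested in the kidney was 50.25%. The part of base composition in this likeness was not tested. The mean z-score was that of the 16 libraries, with the organ's mean subtracted again, and no p is given.

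Ciita, the class II counterpart of Nlrc5, held 2.75 FPKM in the A94 liver and between 0.131 and 0.296 FPKM in the other livers, and 5.85 FPKM in the A94 kidney and between 0.453 and 1.56 FPKM in the others. In the A115 kidney it was the lowest of the 8.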
